A study of Mus musculus with 24 samples.

Results

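Cell cycle and mitosis genes were followed in mouse livers that carried floxed Trib1, floxed Cebpa or both. The members were 41 genes taken by symbol from the 54432 genes of the deposited table, and each symbol was found once. They fall into 9 genes of G1/S control (Ccnd1, Ccnd2, Ccne1, Ccne2, Cdk2, Cdk4, E2f1, E2f2 and E2f8), 10 genes of S phase (Mcm2 to Mcm7, Pcna, Rrm1, Rrm2 and Tyms), 19 genes of G2 and mitosis and 3 genes for inhibitors of cyclin-dependent kinases (Cdkn1a, Cdkn1b and Cdkn2c). Whole-liver RNA came from 24 male C57BL/6 mice, 6 per group. The groups had a Trib1 Flox/Flox genotype (labelled Trib1-KO), a Cebpa Flox/Flox genotype (Cebpa-KO), a Trib1;Cebpa Flox/Flox genotype (labelled DKO) or a wild-type genotype (WT). Mice of all 4 groups, WT included, received AAV-Cre, a viral vector for the recombinase that deletes floxed DNA. They were aged 20 to 21 weeks when injected, and livers were collected 4 weeks later from chow-fed mice after 4 h without food. The promoter that drives Cre is not given in the sources used here, and whole liver also holds cells other than hepatocytes.

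A cell enters the cycle when D-type and E-type cyclins activate Cdk4 and Cdk2, which release the E2F factors from the retinoblastoma family and switch on genes for DNA synthesis. Genes of G2 and mitosis come on later, under the MuvB complex with B-Myb and Foxm1, and their products build the spindle and drive cyclin B with Cdk1. Hepatocytes of an adult liver are mostly quiescent and can re-enter the cycle after injury or loss of tissue. C/EBPα, the product of Cebpa, is known for restraining proliferation in liver, and Trib1 is a pseudokinase known for directing C/EBPα to degradation through the COP1 ubiquitin ligase.

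The promoters of the members show a feature on which their choice did not rest. RefSeq windows on the GRCm38.p6 build, from 250 bases before to 50 bases after an annotated gene start, were found for 33 of the 41 members, of which 4 had a pair of windows, giving 37. No window was found for Ccnd1, Ccnd2, Ccne2, Mcm4, Ccna2, Aurkb, Foxm1 and Kif20a. The cell cycle homology region, CHR, to which MuvB binds, was searched as TTTGAA or TTCGAA on both strands, the CCAAT box as CCAAT, and the E2F site as TTCCCGC or TTGGCGC, also on both strands. An E2F match read on the opposite strand can share letters with a CCAAT box. CHR letters were in 11 of 15 windows of G2 and mitosis genes (73.3%), in 2 of 10 windows of S phase genes, in 2 of 7 windows of G1/S control genes and in 0 of 5 windows of inhibitor genes, against 19.2% of all 32851 windows. Each of those 11 windows also held a CCAAT box, as did each window with CHR letters in the other classes. Both were in 7.52% of all windows. A CCAAT box was in 90% of S phase windows and 86.7% of those of G2 and mitosis genes. It was in 57.1% of G1/S control windows and 40% of inhibitor windows, against 37.4% of all windows. E2F letters were in 6 of 10 S phase windows (60%), which include both windows of Mcm7, and in 3 of 7 G1/S control windows (42.9%). They were in 3 of 15 windows of G2 and mitosis genes (20%) and 1 of 5 inhibitor windows (20%), against 6.81% of all windows. The C/EBP core TTNNGNAA was in 35.1% of the members' windows and in 40.7% of all windows, and by class in 60% of S phase windows, 26.7% of those of G2 and mitosis genes, 14.3% of those of G1/S control genes and 40% of those of inhibitors. Windows of 4 G2 and mitosis genes that carry CHR letters are printed because those genes rose without overlap in the libraries labelled Trib1-KO. They had the smallest adjusted p of the 5 such genes, of which the other was Top2a. Ccnb1 also rose without overlap, and its window has no CHR letters. Cdk1, Cdc20 and Kif11 have CHR letters and rose with overlap, while Bub1, Bub1b and Cenpf have them and did not pass. Cenpe, Birc5 and Mybl2 have none and did not pass. The printed windows were chosen for both features, so CHR letters in them are not a result. The window of Mcm5 is printed because it was the S phase gene with the smallest adjusted p. Capitals mark matches to CHR, the CCAAT box and E2F on either strand, 5′ to 3′ in the direction of the gene.
Mki67 (chr7:135716330-135716629, minus strand): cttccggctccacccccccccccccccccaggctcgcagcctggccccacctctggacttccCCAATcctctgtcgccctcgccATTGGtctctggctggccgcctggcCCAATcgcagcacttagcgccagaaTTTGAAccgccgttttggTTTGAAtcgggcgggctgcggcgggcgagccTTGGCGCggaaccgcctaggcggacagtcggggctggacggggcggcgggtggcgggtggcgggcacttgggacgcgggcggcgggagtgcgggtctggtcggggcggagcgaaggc
Aurka (chr2:172370521-172370820, minus strand): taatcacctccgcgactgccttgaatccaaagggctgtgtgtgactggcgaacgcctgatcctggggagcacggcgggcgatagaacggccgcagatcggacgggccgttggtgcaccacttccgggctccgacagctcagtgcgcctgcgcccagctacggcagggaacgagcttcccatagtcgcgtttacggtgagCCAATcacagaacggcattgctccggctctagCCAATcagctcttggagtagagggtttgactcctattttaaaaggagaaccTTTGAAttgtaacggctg
Ccnb2 (chr9:70421505-70421804, minus strand): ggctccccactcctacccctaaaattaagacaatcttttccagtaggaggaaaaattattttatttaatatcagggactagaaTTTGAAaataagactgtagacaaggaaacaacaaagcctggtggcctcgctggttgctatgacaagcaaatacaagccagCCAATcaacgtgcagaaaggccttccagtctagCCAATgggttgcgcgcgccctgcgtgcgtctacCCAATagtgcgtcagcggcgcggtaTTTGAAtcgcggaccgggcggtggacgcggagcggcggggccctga
Plk1 (chr7:122159185-122159484, plus strand): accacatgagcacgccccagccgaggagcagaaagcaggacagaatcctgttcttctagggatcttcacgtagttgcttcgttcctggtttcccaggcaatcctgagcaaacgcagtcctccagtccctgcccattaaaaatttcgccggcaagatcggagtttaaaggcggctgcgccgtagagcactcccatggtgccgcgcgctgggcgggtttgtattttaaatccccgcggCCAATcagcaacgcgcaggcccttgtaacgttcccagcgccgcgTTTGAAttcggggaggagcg
Mcm5 (chr8:75109259-75109558, plus strand): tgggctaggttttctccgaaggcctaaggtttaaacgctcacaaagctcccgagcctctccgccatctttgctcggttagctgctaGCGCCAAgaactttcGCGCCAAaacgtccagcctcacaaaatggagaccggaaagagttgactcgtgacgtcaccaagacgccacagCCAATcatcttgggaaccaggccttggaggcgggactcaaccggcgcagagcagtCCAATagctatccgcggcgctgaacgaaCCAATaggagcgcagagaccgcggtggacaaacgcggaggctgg
In the first 4 of these, a TTTGAA stands downstream of at least 1 CCAAT box, and Mcm5 has CCAAT boxes and a pair of E2F matches written GCGCCAA but no CHR letters. A match describes letters in a window and is neither a binding site nor a cause of a level.

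**Figure D1:**
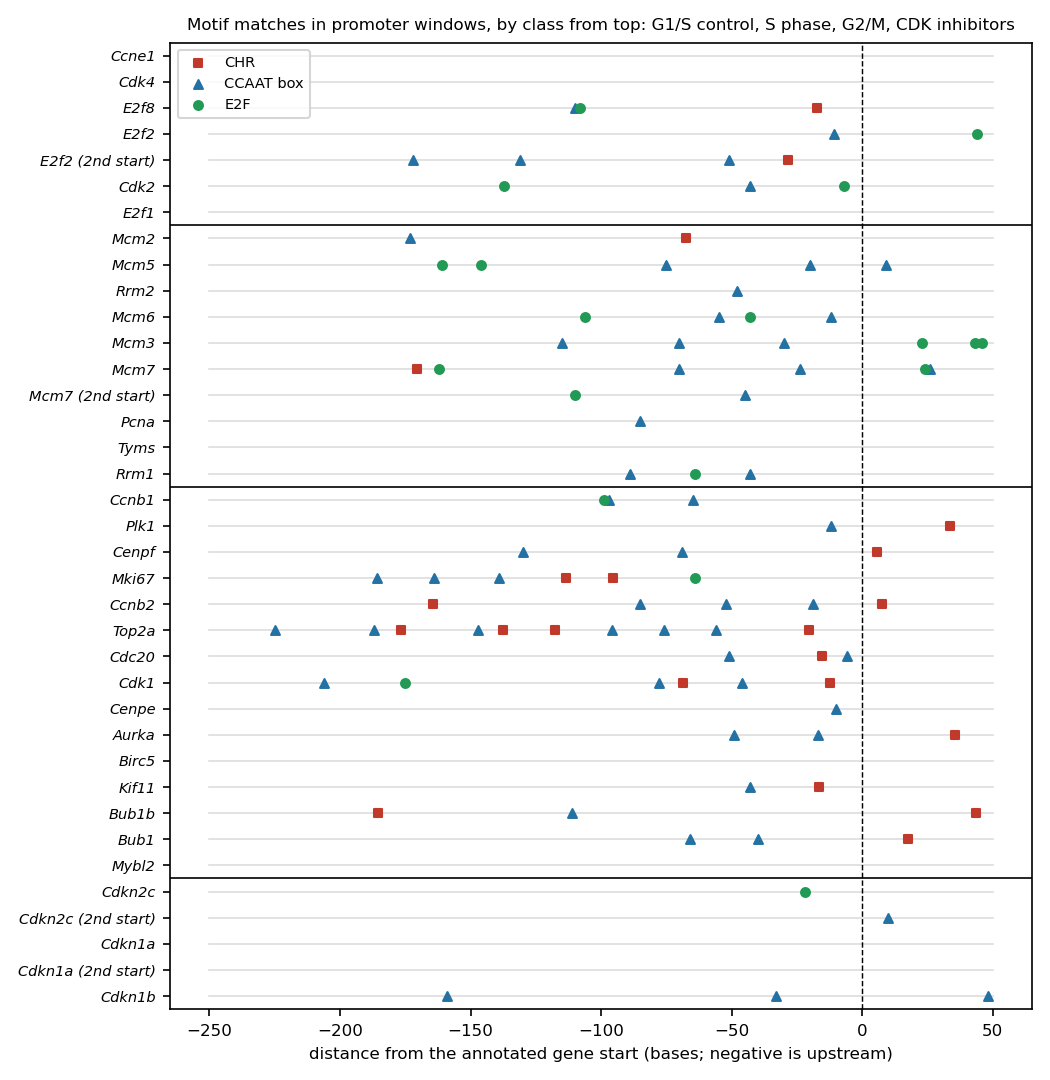
Matches to CHR (red squares), the CCAAT box (blue triangles) and E2F (green circles) in the 37 promoter windows of the members, each grey line being a window. The horizontal axis is the distance in bases from the annotated gene start, with negative values upstream, and the classes run from G1/S control at the top to CDK inhibitors at the bottom. CHR matches are concentrated in the G2 and mitosis block, where 11 of 15 windows have them.

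The values are estimated counts per gene divided by a size factor per library, called normalized counts here, with library totals of 23385900 to 27190700 and an estimated 18600000 to 34300000 reads per library. A library is named by a letter and a number taken from its column, with C and D labelled Trib1-KO, E and F Cebpa-KO, G and H labelled DKO, and A and B WT. Cebpa averaged 82.2 ± 17.5 normalized counts in Cebpa-KO libraries, 82.4 ± 18.1 in those labelled DKO and 2668 ± 359 in those labelled Trib1-KO, against 6019 ± 1057 in WT libraries (SD, n = 6 each). Trib1 went against the label in libraries labelled Trib1-KO, with 4237 ± 358 normalized counts, against 1224 ± 204 in WT libraries (SD, n = 6 each). It averaged 333 ± 158 in Cebpa-KO libraries and 732 ± 259 in those labelled DKO (SD, n = 6 each). The mean in libraries labelled DKO was thus below that of WT and above that of Cebpa-KO libraries. The table holds 1 value per gene, which does not show whether a stretch of the transcript was missing. Differences are log2 of the first-named group minus the other, on the log2(normalized count + 1) scale, with the standard error after ±. That scale understates the change of low genes. The adjusted p is from limma with Benjamini-Hochberg adjustment over the 19810 genes whose mean was 1 or more, and a gene was called to rise or fall when it was under 0.05. All 41 members passed that filter. In the main fit, each p-value sets a difference between groups against the spread between mice within groups, estimated over all 4 groups. In bulk liver, fewer cells of a type and less RNA per cell cannot be told apart.

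Genes of G2 and mitosis rose in the libraries labelled Trib1-KO, and most members did not pass the test in Cebpa-KO libraries or in those labelled DKO. Against WT, 19 of the 41 members rose and 1 fell in the libraries labelled Trib1-KO, where 11.8% of all genes tested rose and 10.9% fell (22.7% in either direction). In 11 members all libraries labelled Trib1-KO lay above all WT libraries, and in 1 member all lay below (6.26% and 5.71% of all genes). The rise was uneven over the classes. It took in 13 of 19 genes of G2 and mitosis (median log2 difference 1.60), 4 of 10 S phase genes (median 0.30), 1 of 9 G1/S control genes, of which another fell (median -0.08), and 1 of 3 inhibitors (median 0.68), while the median of all genes tested was 0.008. No G2 and mitosis gene had a log2 difference below 0. When library totals were made equal after leaving out the Mup genes, which encode the abundant major urinary proteins, the median of all genes moved to 0.24, and calls over all genes to 5167 higher and 988 lower, against 2330 higher and 2168 lower without that change. Under it 23 members rose and 1 fell, and Mki67, for example, had a log2 difference of 2.04 beside that shift of 0.24.

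**Figure D2:**
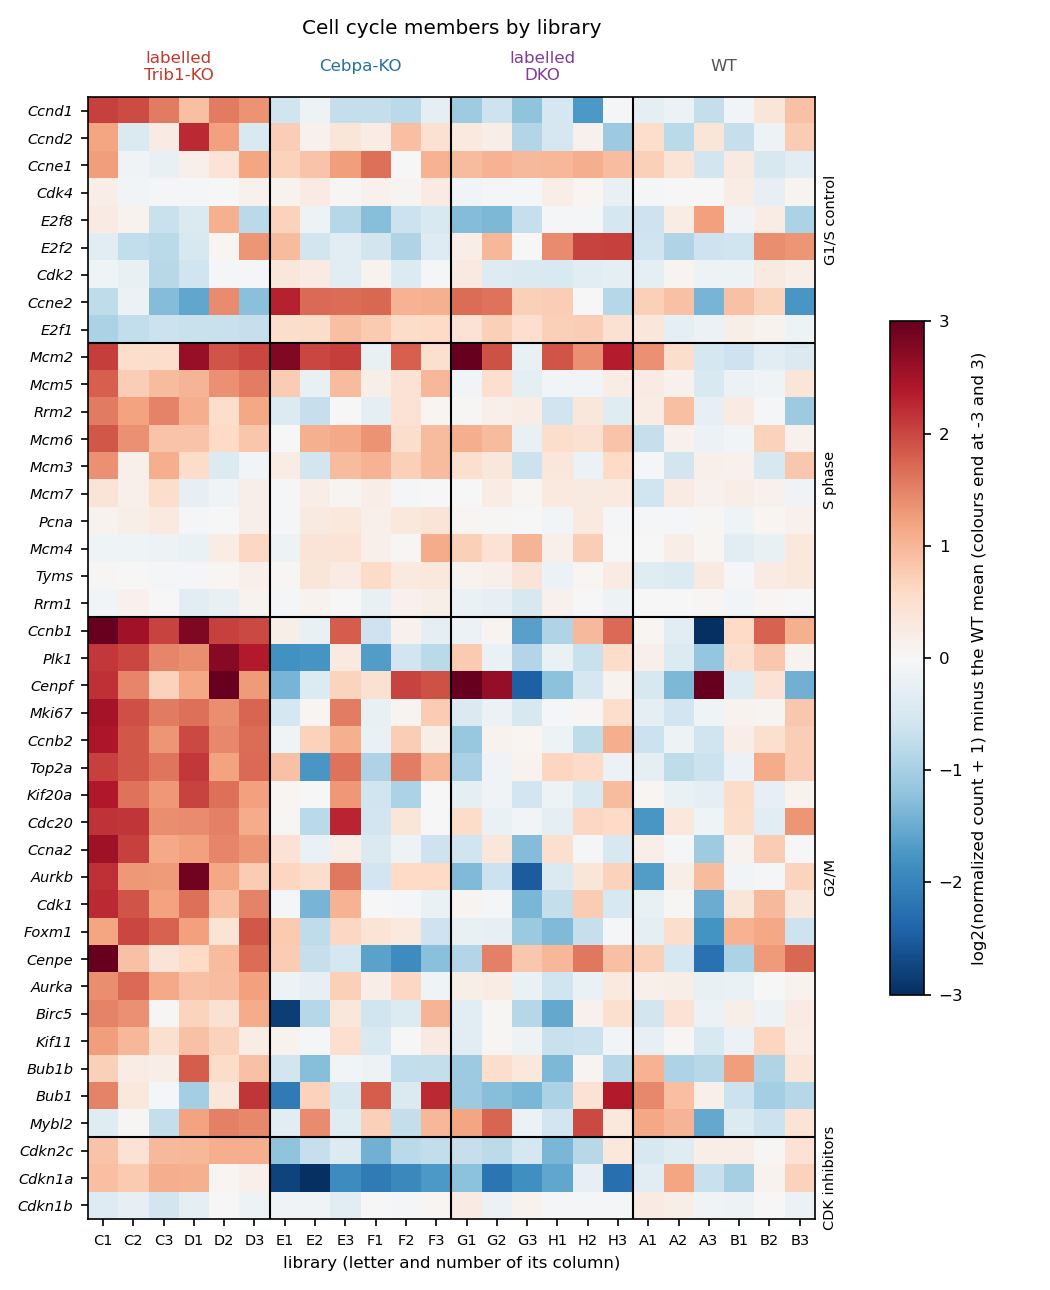
Each row is a member and each column a library, with the libraries labelled Trib1-KO at the left, then Cebpa-KO, labelled DKO and WT. Colour is log2(normalized count + 1) minus the WT mean of the gene, red above and blue below it, with colours ending at -3 and 3. The G2/M block is mostly red in the 6 libraries labelled Trib1-KO, with blue cells for Bub1 and Mybl2 among the exceptions, and Cdkn1a is blue in all 6 Cebpa-KO libraries.

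The pattern held library by library. The mean over the 19 genes of G2 and mitosis, as log2 relative to the WT mean, lay between 0.96 and 1.93 in the libraries labelled Trib1-KO (median 1.42), between -0.37 and 0.74 in Cebpa-KO libraries (median -0.12) and between -0.72 and 0.45 in those labelled DKO (median 0.02), against -0.61 to 0.32 in WT libraries (median 0.03). The 6 libraries labelled Trib1-KO therefore stood above the other 18, and the highest of those was Cebpa-KO library E3. For the 10 S phase genes the ranges were 0.40 to 0.90 in libraries labelled Trib1-KO, 0.29 to 0.62 in Cebpa-KO libraries and -0.02 to 0.55 in those labelled DKO, against -0.09 to 0.11 in WT libraries. All Cebpa-KO libraries and all those labelled Trib1-KO were thus above WT for the S phase class. Of its 10 genes, however, 1 passed in Cebpa-KO libraries, which is near the share of 9.82% over all genes. Mcm2, which did not pass there (adjusted p 0.0824, limma), stood at 2.78 in library E1, where the class mean was 0.31. For the 9 G1/S control genes the ranges were -0.30 to 0.56 in libraries labelled Trib1-KO, -0.02 to 0.64 in Cebpa-KO libraries and -0.11 to 0.28 in those labelled DKO. The WT range was -0.22 to 0.24, so that all 4 groups overlapped. The 3 inhibitors ran from 0.33 to 0.59 in libraries labelled Trib1-KO, from -1.36 to -0.80 in Cebpa-KO libraries and from -1.05 to -0.37 in those labelled DKO, against -0.31 to 0.33 in WT libraries. Of the 3 inhibitors, Cdkn1b did not share this pattern. It stood at -0.34 to 0.05 in Cebpa-KO libraries and at -0.17 to 0.26 in those labelled DKO. In every library labelled Trib1-KO it was at or below its WT mean (down to -0.54). Library C1 was the highest and C3 the lowest of those labelled Trib1-KO for G2 and mitosis genes.

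**Figure D3:**
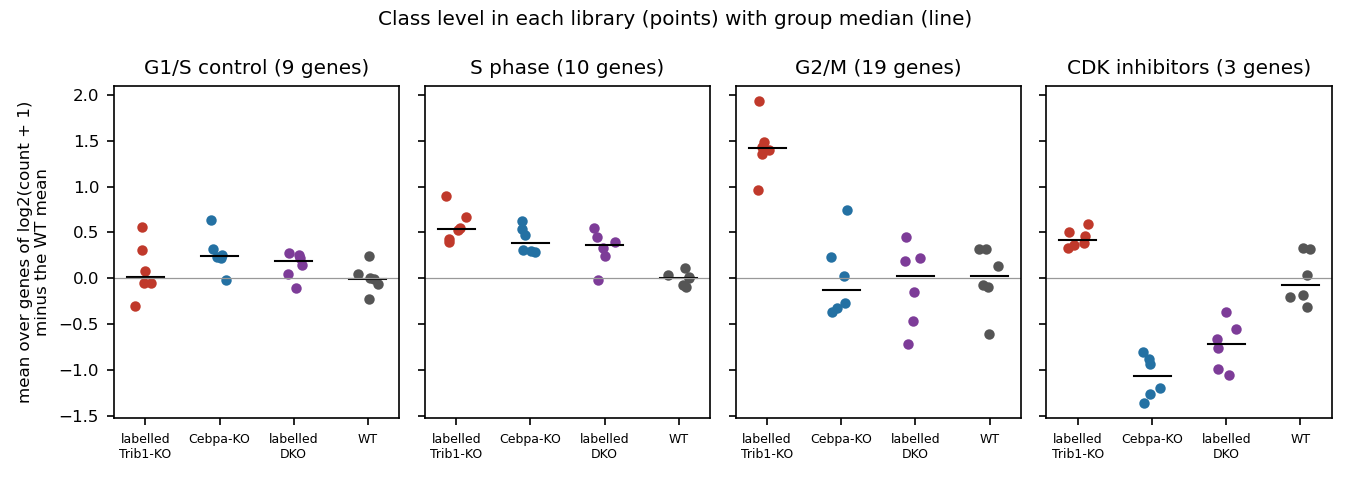
Mean over the genes of a class of log2(normalized count + 1) minus the WT mean, with a point for each library and a line at the group median. In the G2/M panel the libraries labelled Trib1-KO lie between 0.96 and 1.93, above every other library, and in the CDK inhibitor panel the Cebpa-KO libraries lie between -1.36 and -0.80, below every WT library.

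Markers of several cell types differed between the groups, though not all lists did so beyond the share over all genes. Over all genes tested, 11.8% rose and 10.9% fell in libraries labelled Trib1-KO. The shares were 4.6% and 5.22% in Cebpa-KO libraries and 2.84% and 3.25% in those labelled DKO. The summed level of 12 Kupffer cell and macrophage markers was 18896 to 22138 normalized counts in libraries labelled Trib1-KO, 12903 to 16884 in Cebpa-KO libraries and 11427 to 17827 in those labelled DKO, against 9915 to 17988 in WT libraries. Of these 12 markers, 10 rose in the libraries labelled Trib1-KO, Cd68 by 1.37 ± 0.20 and Adgre1 by 1.11 ± 0.23, and none passed in Cebpa-KO libraries or those labelled DKO. Of 8 hepatocyte markers 5 fell in the libraries labelled Trib1-KO, 2 rose and 2 fell in Cebpa-KO libraries, and 1 rose and 1 fell in those labelled DKO. Their sum was 574158 to 730906 in libraries labelled Trib1-KO, 2057938 to 2985245 in Cebpa-KO libraries and 2044271 to 2424566 in those labelled DKO, against 1447228 to 2197986 in WT libraries. It is mostly Alb, the albumin gene, which fell in libraries labelled Trib1-KO (-2.02 ± 0.15), while Hnf4a (-0.02 ± 0.09) and Cps1 (-0.05 ± 0.19) did not pass there. Of 6 neutrophil markers 5 were tested, and 3 rose in libraries labelled Trib1-KO, 1 in Cebpa-KO libraries and 1 in those labelled DKO. Their sum was 131 to 403 in libraries labelled Trib1-KO, against 65.7 to 145 in WT libraries. It was 98.6 to 357 in Cebpa-KO libraries and 115 to 448 in those labelled DKO. The defining neutrophil gene Ly6g was listed at 0 in 4 of 6 libraries labelled Trib1-KO and in 4 of 6 WT libraries. Among 10 lymphocyte markers 2 rose in libraries labelled Trib1-KO, which is near the share over all genes (sum 207 to 584, against 123 to 317 in WT libraries). Among 6 sinusoidal endothelial markers 3 rose and 1 fell in libraries labelled Trib1-KO (sum 5899 to 6996, against 5528 to 6851 in WT libraries). Among 6 stellate cell markers 2 rose there (7931 to 9612, against 6667 to 8568 in WT libraries). Of the 6 erythroid markers 5 were tested, and 1 fell in libraries labelled Trib1-KO (sum 2211 to 3286, against 1901 to 4999 in WT libraries). In Cebpa-KO libraries and in those labelled DKO 1 also fell. Alas2 had 897 to 1439 normalized counts in Cebpa-KO libraries and 659 to 1160 in those labelled DKO, against 1505 to 2926 in WT libraries. The erythroid gene Slc4a1 was listed at 0 in 4 of 6 libraries labelled Trib1-KO and in 2 of 6 WT libraries. Of the 6 cholangiocyte markers 2 fell in libraries labelled Trib1-KO, 1 rose and 1 fell in Cebpa-KO libraries, and 1 rose and 2 fell in those labelled DKO. Their sum, 797 to 976 in libraries labelled Trib1-KO, 2589 to 7824 in Cebpa-KO libraries and 2351 to 5373 in those labelled DKO, against 1092 to 1502 in WT libraries, is mostly Spp1, the 1 that rose (1.66 ± 0.21 in Cebpa-KO libraries and 1.65 ± 0.21 in those labelled DKO), while Sox9 fell in both groups (-1.88 ± 0.24 and -1.75 ± 0.24). The part of these cells in the cell cycle results was not tested.

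Among the genes of G2 and mitosis, Mki67, which encodes the proliferation antigen Ki-67 (chr7:135689784-135716361, minus strand, GENCODE M21 on GRCm38), had 176 to 381 normalized counts (median 219) in libraries labelled Trib1-KO, 45.8 to 196 (median 70.3) in Cebpa-KO libraries and 47.6 to 97.2 (median 61.9) in those labelled DKO, against 44.5 to 118 (median 65.9) in WT libraries. The libraries labelled Trib1-KO were all above WT, while the other groups overlapped it. Mki67 rose by 1.80 ± 0.28 in libraries labelled Trib1-KO (adjusted p 3.5e-05), and its difference was 0.28 ± 0.28 in Cebpa-KO libraries (adjusted p 0.64) and -0.09 ± 0.28 in those labelled DKO (adjusted p 0.92). Aurka, the kinase of centrosome maturation (chr2:172356190-172370535, minus strand), had 36.5 to 65.0 normalized counts (median 45.3) in libraries labelled Trib1-KO, 16.2 to 32.3 (median 20.0) in Cebpa-KO libraries and 12.5 to 24.1 (median 19.5) in those labelled DKO, against 16.5 to 21.9 (median 20.1) in WT libraries. The libraries labelled Trib1-KO again did not overlap WT, with a rise of 1.21 ± 0.21 (adjusted p 0.00013).

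Kif20a, the kinesin that works in cytokinesis, had 66.0 to 151 normalized counts (median 87.6) in libraries labelled Trib1-KO, 13.9 to 69.7 (median 27.9) in Cebpa-KO libraries and 18.3 to 54.0 (median 23.4) in those labelled DKO, against 22.5 to 40.9 (median 26.3) in WT libraries. All libraries labelled Trib1-KO were above WT, and the rise was 1.70 ± 0.31 (adjusted p 0.00017). Ccnb2, a mitotic partner of Cdk1 (chr9:70407692-70421547, minus strand), had 33.7 to 73.3 normalized counts (median 46.3) in libraries labelled Trib1-KO, 11.1 to 28.0 (median 18.0) in Cebpa-KO libraries and 5.25 to 28.5 (median 12.4) in those labelled DKO, against 7.86 to 22.0 (median 13.0) in WT libraries. It rose by 1.79 ± 0.34 without overlap with WT (adjusted p 0.00026). Its pseudogene Ccnb2-ps averaged 1.39 normalized counts over all libraries.

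The other 9 genes of G2 and mitosis that rose in the libraries labelled Trib1-KO cover the mitotic trigger, the chromosomes and the spindle. Ccnb1, the main mitotic cyclin, rose by 2.48 ± 0.64 (adjusted p 0.0053) and was listed at 0 in WT library A3. Plk1, the kinase of mitotic entry whose promoter is printed above, had 25.2 to 66.0 normalized counts in libraries labelled Trib1-KO and 3.50 to 16.7 in WT libraries, and rose by 2.01 ± 0.40 (adjusted p 0.00046). Ccna2, the cyclin of S phase and G2, rose by 1.62 ± 0.32, and its catalytic partner Cdk1 by 1.56 ± 0.39. Top2a, which untangles DNA, rose by 1.77 ± 0.46. Cdc20, the activator of the anaphase-promoting complex, rose by 1.63 ± 0.45. Kif11, a kinesin of the bipolar spindle, rose by 0.76 ± 0.21, Aurkb, the kinase of the chromosomal passenger complex, by 1.60 ± 0.50 and Foxm1, a transcription factor for G2 and mitosis genes, by 1.41 ± 0.43. The adjusted p values of these last 7 genes were between 0.00046 and 0.0221. The call for Aurkb was lost without WT library A1 or without library C1 or D1 labelled Trib1-KO (adjusted p up to 0.0686), and that for Foxm1 without WT library A3 (adjusted p 0.0535).

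The remaining 6 of the class did not pass in the libraries labelled Trib1-KO. Cenpf and Cenpe, which act at the kinetochore, had log2 differences of 1.85 ± 0.90 (adjusted p 0.15) and 1.28 ± 0.61 (adjusted p 0.14). Their levels were spread widely, with Cenpf at 17.0 to 218 normalized counts in libraries labelled Trib1-KO and at 3.15 to 103 in WT libraries. Birc5, the survivin gene of the passenger complex, differed by 0.85 ± 0.45, the checkpoint gene Bub1b by 0.73 ± 0.41, the checkpoint kinase gene Bub1 by 0.53 ± 0.72 and Mybl2, which encodes B-Myb, by 0.52 ± 0.54. In Cebpa-KO libraries and in those labelled DKO, 0 of the 19 genes passed against WT (9.82% and 6.09% of all genes did). The median log2 differences were 0.16 and -0.10, and the largest single one in either group was that of Plk1 in Cebpa-KO libraries, with 1.84 to 11.3 normalized counts, against 3.50 to 16.7 in WT libraries (-1.06 ± 0.40, adjusted p 0.10).

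**Figure D4:**
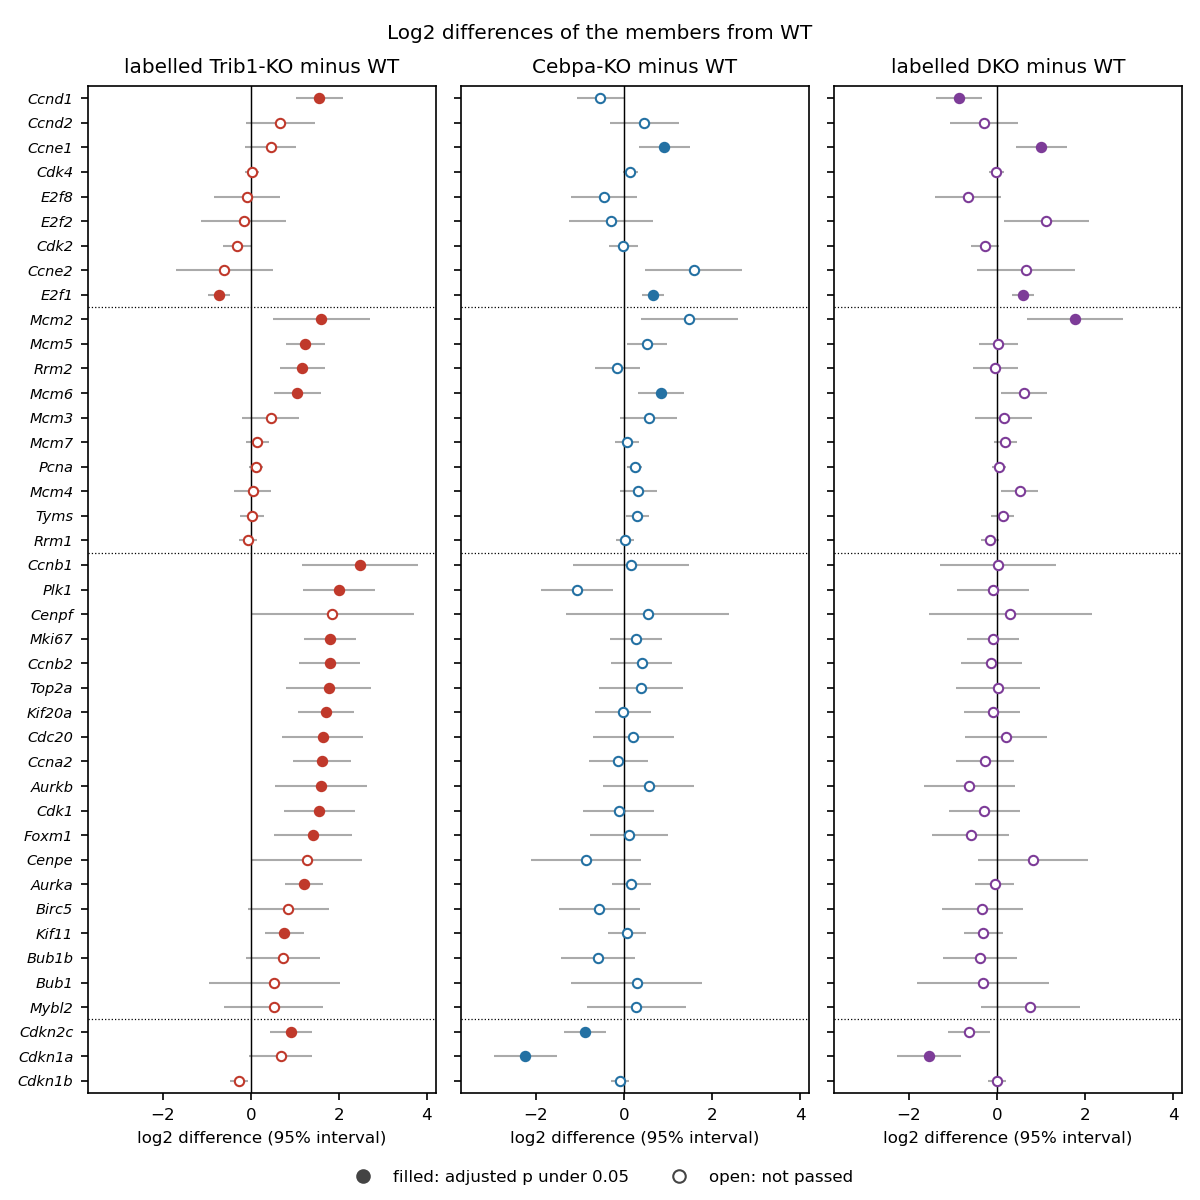
Log2 difference from WT of each member with its 95% interval, for libraries labelled Trib1-KO, Cebpa-KO libraries and libraries labelled DKO from left to right, in the order G1/S control, S phase, G2/M and CDK inhibitors from the top. Filled points passed at an adjusted p under 0.05. The filled points of the G2/M block, 13 of 19, are all in the panel of the libraries labelled Trib1-KO.

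Among S phase genes, members of the replicative helicase and the ribonucleotide reductase subunit Rrm2 rose in the libraries labelled Trib1-KO, while Pcna, Rrm1, Tyms, Mcm3, Mcm4 and Mcm7 did not pass. Mcm5 (chr8:75109569-75128439, plus strand) had 80.8 to 170 normalized counts (median 113) in libraries labelled Trib1-KO, 41.4 to 97.3 (median 74.5) in Cebpa-KO libraries and 39.1 to 68.6 (median 45.9) in those labelled DKO, against 35.1 to 62.1 (median 49.0) in WT libraries. It rose by 1.23 ± 0.22 in libraries labelled Trib1-KO, without overlap with WT (adjusted p 0.00013), and its difference was 0.52 ± 0.22 in Cebpa-KO libraries (adjusted p 0.15). Rrm2, which makes deoxynucleotides, had 227 to 464 normalized counts (median 357) in libraries labelled Trib1-KO, 97.4 to 212 (median 143) in Cebpa-KO libraries and 103 to 199 (median 167) in those labelled DKO, against 73.6 to 293 (median 168) in WT libraries. The libraries labelled Trib1-KO overlapped WT, and the rise was 1.17 ± 0.25 (adjusted p 0.001).

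Mcm6, of the same helicase, rose in Cebpa-KO libraries as well as those labelled Trib1-KO. It had 121 to 292 normalized counts (median 145) in libraries labelled Trib1-KO, 80.3 to 205 (median 162) in Cebpa-KO libraries and 68.1 to 171 (median 130) in those labelled DKO, against 48.9 to 130 (median 81.1) in WT libraries, and each group overlapped WT. The rise was 1.06 ± 0.26 in libraries labelled Trib1-KO (adjusted p 0.0034) and 0.84 ± 0.26 in Cebpa-KO libraries (adjusted p 0.0375), and the difference was 0.61 ± 0.26 in those labelled DKO (adjusted p 0.2). The Cebpa-KO call for Mcm6 was lost without WT library A1, A2, A3, B1 or B3 or Cebpa-KO library E2, E3, F1 or F3 (adjusted p up to 0.0981), and under the Mup-free scaling (0.0546), with no filter or with only the groups compared (up to 0.0597). Mcm2 had 63.6 to 275 normalized counts (median 173) in libraries labelled Trib1-KO, 37.7 to 309 (median 168) in Cebpa-KO libraries and 37.8 to 439 (median 168) in those labelled DKO, against 28.6 to 115 (median 33.9) in WT libraries. Every group was widely spread and overlapped WT. Mcm2 rose by 1.60 ± 0.53 in libraries labelled Trib1-KO (adjusted p 0.03) and by 1.77 ± 0.53 in those labelled DKO (adjusted p 0.0477), and differed by 1.48 ± 0.53 in Cebpa-KO libraries (adjusted p 0.0824). The call in the libraries labelled Trib1-KO was lost without WT library A3, B1, B2 or B3 or library C1, D1, D2 or D3 (adjusted p up to 0.0753). That in the libraries labelled DKO was lost without A2, A3, B1, B2, B3, C1, D2, D3, E2, E3, F2, G1, G2, H1, H2 or H3 (adjusted p up to 0.129). It was also lost in 6 of 11 other settings of the fit, which were a pseudocount of 5, no filter, the Mup-free scaling (0.0534), only the groups compared, array weights and robust eBayes (adjusted p up to 0.0749).

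The G1/S control genes did not move together, and Ccnd1 and E2f1 moved in opposite directions. Ccnd1, the cyclin D1 gene (chr7:144929931-144939925, minus strand), had 720 to 1590 normalized counts (median 1138) in libraries labelled Trib1-KO, 219 to 348 (median 246) in Cebpa-KO libraries and 115 to 377 (median 216) in those labelled DKO, against 235 to 708 (median 353) in WT libraries. It rose by 1.56 ± 0.26 in libraries labelled Trib1-KO (adjusted p 5.3e-05), all of which were above WT. In libraries labelled DKO it fell by 0.86 on the log2 scale, with a standard error of 0.26 (adjusted p 0.0437), and in Cebpa-KO libraries its difference was -0.54 ± 0.26 (adjusted p 0.21). The call in the libraries labelled DKO was lost without A2, B1, B2, B3, C3, D2, E1, F1, G1, G2, G3 or H2 (adjusted p up to 0.115), and with no filter, equal library totals, only the groups compared or the column number as a covariate (up to 0.138).

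E2f1, the activating E2F factor of the G1/S step (chr2:154559407-154569892, minus strand), had 49.2 to 61.5 normalized counts (median 59.5) in libraries labelled Trib1-KO, 139 to 180 (median 144) in Cebpa-KO libraries and 129 to 161 (median 147) in those labelled DKO, against 78.4 to 123 (median 95.1) in WT libraries. None of the other groups overlapped WT, which stood between them. E2f1 fell in libraries labelled Trib1-KO (-0.73 ± 0.12, adjusted p 4.9e-05), and rose in Cebpa-KO libraries (0.65 ± 0.12, adjusted p 0.00051) and in those labelled DKO (0.59 ± 0.12, adjusted p 0.0024). Under the Mup-free scaling the fall in libraries labelled Trib1-KO was -0.49 (adjusted p 0.0024). E2f1 was the 1 member that fell in that comparison, and also the 1 that lay below WT without overlap.

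Of the E-type cyclin genes, whose products activate Cdk2, Ccne1 rose in Cebpa-KO libraries and in those labelled DKO, and Ccne2 did not pass against WT. Ccne1 had 26.1 to 74.1 normalized counts (median 37.4) in libraries labelled Trib1-KO, 30.9 to 98.5 (median 59.5) in Cebpa-KO libraries and 59.1 to 65.8 (median 61.6) in those labelled DKO, against 20.6 to 50.2 (median 30.2) in WT libraries. The libraries labelled DKO were all above WT and close together. Ccne1 rose by 0.92 ± 0.28 in Cebpa-KO libraries (adjusted p 0.0371) and by 1.00 ± 0.28 in those labelled DKO (adjusted p 0.0329). The Cebpa-KO call was lost without A3, B2, B3, E2, E3, F1 or F3 (adjusted p up to 0.1), and the other without A3, B2, B3, G1, G2, G3, H1 or H2 (adjusted p up to 0.0826). The Cebpa-KO call was also lost with no filter, only the groups compared or array weights (up to 0.0826), and the other with no filter (0.0515). Ccne2 had 5.06 to 47.0 normalized counts (median 8.00) in libraries labelled Trib1-KO, 35.9 to 87.1 (median 56.8) in Cebpa-KO libraries and 8.87 to 56.2 (median 28.8) in those labelled DKO, against 4.32 to 32.1 (median 27.9) in WT libraries. The Cebpa-KO libraries were all above WT, and the difference of 1.58 ± 0.54 did not pass (adjusted p 0.0631). The kinase genes Cdk4 and Cdk2 had differences from WT between -0.31 and 0.14 in the 3 groups, and neither they nor Ccnd2, E2f2 and E2f8 passed against WT.

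**Figure D5:**
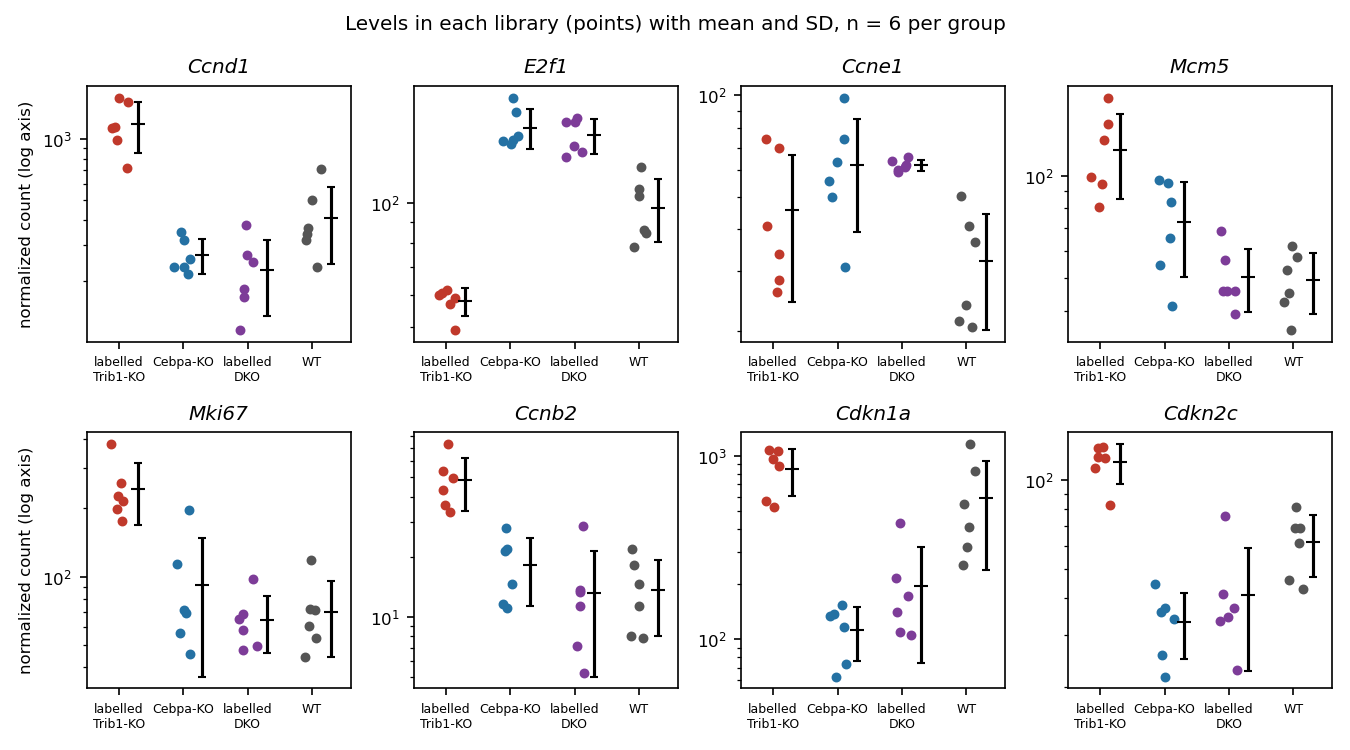
Normalized counts of 8 members in each library (points, log axis) with the group mean and SD (n = 6), in libraries labelled Trib1-KO, Cebpa-KO libraries, libraries labelled DKO and WT libraries from left to right. Ccnd1, Mcm5, Mki67 and Ccnb2 are highest in the libraries labelled Trib1-KO, E2f1 is lowest there, and Cdkn1a is below WT in every Cebpa-KO library.

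Of the 3 inhibitor genes, Cdkn1a fell in Cebpa-KO libraries and in those labelled DKO, Cdkn2c rose in the libraries labelled Trib1-KO and fell in Cebpa-KO libraries, and Cdkn1b did not pass against WT. Cdkn1a, which encodes the p53-induced inhibitor p21 (chr17:29090976-29100727, plus strand), had 529 to 1076 normalized counts (median 921) in libraries labelled Trib1-KO, 62.5 to 154 (median 125) in Cebpa-KO libraries and 106 to 430 (median 156) in those labelled DKO, against 255 to 1158 (median 478) in WT libraries. Every Cebpa-KO library was below every WT library. Cdkn1a fell in Cebpa-KO libraries (-2.24 ± 0.35, adjusted p 0.0001) and in those labelled DKO (-1.55 ± 0.35, adjusted p 0.0071). Its difference in libraries labelled Trib1-KO was 0.68 ± 0.35 (adjusted p 0.19) and passed under the Mup-free scaling (0.92, adjusted p 0.0477).

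Cdkn2c, for the Cdk4 and Cdk6 inhibitor p18 (chr4:109660876-109667189, minus strand), had 82.2 to 130 normalized counts (median 119) in libraries labelled Trib1-KO, 21.6 to 44.7 (median 34.9) in Cebpa-KO libraries and 22.8 to 75.5 (median 35.7) in those labelled DKO, against 43.0 to 81.2 (median 65.1) in WT libraries. It rose by 0.91 ± 0.23 in libraries labelled Trib1-KO, all above WT (adjusted p 0.0048), and fell in Cebpa-KO libraries (-0.88 ± 0.23, adjusted p 0.0142). In libraries labelled DKO the difference was -0.64 ± 0.23 (adjusted p 0.11). Cdkn1b, for the inhibitor p27, had 287 to 418 normalized counts (median 348) in libraries labelled Trib1-KO, 331 to 432 (median 394) in Cebpa-KO libraries and 370 to 500 (median 404) in those labelled DKO, against 371 to 497 (median 401) in WT libraries. All groups overlapped, and its difference of -0.27 ± 0.10 in libraries labelled Trib1-KO did not pass (adjusted p 0.0506). It passed without B1, B3, D2, D3, E3 or G1 (adjusted p down to 0.0201) and with a pseudocount of 5, a filter at a mean of 10, equal library totals, quantile normalization or array weights (down to 0.0226), and under the Mup-free scaling it was -0.03 (adjusted p 0.88).

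Against WT, 3 members rose and 2 fell in Cebpa-KO libraries, where 4.6% of all genes rose and 5.22% fell (9.82% in either direction). The same numbers rose and fell in the libraries labelled DKO, where 2.84% of all genes rose and 3.25% fell (6.09% in either direction). In 2 members all Cebpa-KO libraries lay above WT and in 1 all lay below (2.52% and 2.65% of all genes), and in 2 all libraries labelled DKO lay above and in 0 all lay below (1.55% and 1.56%). The members called in Cebpa-KO libraries were Ccne1, E2f1 and Mcm6, which rose, and Cdkn1a and Cdkn2c, which fell. In the libraries labelled DKO, Ccne1, E2f1 and Mcm2 rose and Ccnd1 and Cdkn1a fell. Both comparisons use the same WT libraries. Under the Mup-free scaling 2 members rose and 2 fell in each, while calls over all genes were 676 higher and 1209 lower in Cebpa-KO libraries, against 912 and 1034 without it, and 418 higher and 741 lower in those labelled DKO, against 563 and 643. Equal library totals gave 3 higher and 1 lower member in the libraries labelled DKO. The count in Cebpa-KO libraries was 3 without library E2 or F3. That in the libraries labelled DKO was 2 without B2, B3, G1, G2 or H2 and 3 without A2, A3, B1, D2, G3 or H1.

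The libraries labelled DKO differed from those labelled Trib1-KO in 23 members, of which 3 rose and 20 fell, where 14.6% of all genes rose and 15.7% fell (30.3% in either direction). In 18 members all libraries labelled DKO lay below all those labelled Trib1-KO (8.74% of all genes), and in 1, E2f1, all lay above (8.14%). Of the 19 genes of G2 and mitosis 15 fell, with a median of -1.75, among them Ccnb1 (-2.47 ± 0.64, adjusted p 0.0039), Aurkb (-2.23 ± 0.50, adjusted p 0.0012), Foxm1 (-2.01 ± 0.43, adjusted p 0.00065) and Mki67 (-1.89 ± 0.28, adjusted p 1e-05). Ccnd1 fell by 2.42 (standard error 0.26, adjusted p 4.3e-08), Cdkn1a by 2.23 (0.35, 1.9e-05) and Cdkn2c by 1.55 (0.23, 8.4e-06), while E2f1 rose by 1.32 ± 0.12 (adjusted p 2.9e-09). The other calls were Mcm5 and Rrm2, which fell, and E2f2 and Cdkn1b, which rose. The calls for E2f2 (0.0391), Bub1b (0.04), Birc5 (0.0448) and Cdkn1b (0.037) were close to the threshold. They were lost, in that order, without any of C1, C2, C3, D1, G2, H1, H2 and H3 (adjusted p up to 0.0955), of C1, D1, D2, D3, G1, H1 and H3 (up to 0.111), of A3, B1, B2, C1, C2, D1, D3, F1, F2, G1, G3 and H1 (up to 0.121) and of C1, C2, C3, D1, G1 and G3 (up to 0.102). With no filter all 4 calls were lost. That for E2f2 was also lost under the Mup-free scaling (0.086), those for Bub1b and Birc5 with equal library totals and with quantile normalization (up to 0.106), and that for Cdkn1b with only the groups compared (0.0624) and under the Mup-free scaling (0.963). Under the Mup-free scaling the median of all genes moved to -0.28 and 1 member rose and 25 fell, with 1453 higher and 6329 lower genes in all, against 2901 and 3105. With quantile normalization 6 members rose and 18 fell.

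Between the libraries labelled DKO and Cebpa-KO libraries, 0 of the 41 members passed in limma, where 0.0808% of all genes rose and 0.121% fell (0.202% in either direction). In 0 members the groups did not overlap, as in 0.273% of all genes with the libraries labelled DKO higher and 0.439% with them lower. At an unadjusted p under 0.05 there were 6 members, E2f2, Mcm5, Pcna, Aurkb, Plk1 and Cenpe, and 9.48% of all genes. The interval of the Mki67 difference from WT in the libraries labelled DKO was -0.68 to 0.49, and that of the same gene in Cebpa-KO libraries -0.31 to 0.87. Both are against WT and do not bound the difference between libraries labelled DKO and Cebpa-KO libraries.

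The interaction sets the difference between libraries labelled DKO and Cebpa-KO libraries against that between libraries labelled Trib1-KO and WT libraries. It was called in 15 members, of which 1, E2f1, was higher and 14 were lower, where 6.35% of all genes were higher and 6.22% lower (12.6% in either direction). Of the 14, 10 were genes of G2 and mitosis, 3 were S phase genes and 1 was Ccnd1. The interaction was -2.17 ± 0.40 for Mki67 (adjusted p 0.00052), -2.32 ± 0.48 for Ccnb2 (0.0014), -1.88 ± 0.36 for Ccnd1 (0.00074), -1.72 ± 0.31 for Mcm5 (0.00034) and 0.67 ± 0.17 for E2f1 (0.0082). For Cdkn1a it was 0.01 ± 0.50 (adjusted p 1.00), with an interval of -1.02 to 1.03. The calls for Rrm2 (0.0496), Cdk1 (0.0382) and Top2a (0.0304) depended on single libraries, and those for Rrm2 and Cdk1 also on settings of the fit. That for Rrm2 held without A2, D2, E1, E2 or H2 and was lost without any of the other 19 (adjusted p up to 0.0906), and it was also lost with a pseudocount of 0.5, no filter, equal library totals, quantile normalization or the column number as a covariate (up to 0.0731). That for Cdk1 was lost without A1, A2, A3, C1, C2, D1, D3, E1, E3, F1, F2, G3, H1 or H3 (up to 0.0728) and with no filter or quantile normalization (up to 0.059), and that for Top2a without A2, A3, E3, F2, F3 or G1 (up to 0.0584). Under the Mup-free scaling the median of all genes was -0.23, 20 members were lower and 0 higher, the call for E2f1 was lost (0.0746), and calls over all genes were 626 higher and 2873 lower, against 1257 and 1233.

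Other genes of the same steps were taken from lists, and their counts stand beside shares over all genes of 22.7% passing in either direction in libraries labelled Trib1-KO, 9.82% in Cebpa-KO libraries and 6.09% in those labelled DKO. Of 33 other mitotic genes, 21 rose and 1 fell in the libraries labelled Trib1-KO, with a median log2 difference of 1.20. Hmmr, a spindle protein gene, averaged 65.0 ± 17.4 normalized counts there, against 13.2 ± 7.51 in WT libraries (SD, n = 6 each), a rise of 2.41 ± 0.40 (adjusted p 6.2e-05). Ect2, which acts in cytokinesis, averaged 101.2 ± 36.7 normalized counts, against 25.3 ± 17.1 in WT libraries, a rise of 2.08 ± 0.35 (adjusted p 7.1e-05). Cdc25c, a phosphatase that activates Cdk1, stood at 2.86 to 19.0 normalized counts, against 0 to 2.14 in WT libraries, and rose by 2.60 ± 0.46 (adjusted p 0.00012), a value between 1.23 and 3.23 over the alternatives. In Cebpa-KO libraries 1 of the 33 rose and 1 fell, and in those labelled DKO 0 rose and 2 fell.

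Of 22 other replication genes, 4 rose and 3 fell in the libraries labelled Trib1-KO, 3 rose and 0 fell in Cebpa-KO libraries, and 4 rose and 0 fell in those labelled DKO. The first 2 of these counts lie near the shares over all genes. Pola1, the catalytic subunit gene of the primase-polymerase, averaged 72.8 ± 19.9 normalized counts in libraries labelled Trib1-KO, 167 ± 13.5 in Cebpa-KO libraries and 178 ± 37.8 in those labelled DKO, against 84.7 ± 12.9 in WT libraries (SD, n = 6 each). It rose by 0.98 ± 0.17 in Cebpa-KO libraries (adjusted p 0.00031) and by 1.04 ± 0.17 in those labelled DKO (0.0003), without overlap with WT in either. Rfc4, of the clamp loader, rose in all 3 groups, by 1.10 ± 0.21, 0.85 ± 0.21 and 0.86 ± 0.21 in libraries labelled Trib1-KO, Cebpa-KO libraries and those labelled DKO (adjusted p 0.0003, 0.0087 and 0.0124).

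Among 22 regulators of the retinoblastoma, E2F and MuvB families 7 rose and 4 fell in the libraries labelled Trib1-KO. Rbl1, for the pocket protein p107, rose to 69.4 ± 15.6 normalized counts, against 29.0 ± 7.42 in WT libraries (1.24 ± 0.20, adjusted p 5.7e-05). Tfdp1, the dimer partner of E2F factors, rose by 0.78 ± 0.14 (adjusted p 0.00021), and Rbbp4, a subunit of MuvB, fell (-0.79 ± 0.15, adjusted p 0.00026). In Cebpa-KO libraries 1 of the 22 passed, Rbbp4, which rose by 0.53 ± 0.15 (adjusted p 0.0218). That call was lost without B3, E1 or E2 (up to 0.0639) and under the Mup-free scaling (0.0519). In libraries labelled DKO 0 passed. Of 4 other inhibitor genes, Cdkn2a, Cdkn2b, Cdkn2d and Cdkn1c, 0 passed against WT in any of the 3 groups.

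Of 18 p53 targets other than Cdkn1a, 8 rose and 0 fell in the libraries labelled Trib1-KO, 1 rose and 2 fell in Cebpa-KO libraries, and 1 rose and 1 fell in those labelled DKO. Gadd45a, a stress gene, averaged 222 ± 37.4 normalized counts in libraries labelled Trib1-KO, 113 ± 37.1 in Cebpa-KO libraries and 89.4 ± 23.7 in those labelled DKO, against 63.7 ± 22.9 in WT libraries (SD, n = 6 each). It rose by 1.85 ± 0.24 in libraries labelled Trib1-KO, without overlap with WT (adjusted p 1.8e-06), and by 0.83 ± 0.24 in Cebpa-KO libraries (0.0248). The Cebpa-KO call was lost without A2, A3, B1, E2, F2 or F3 (up to 0.0709) and with only the groups compared (0.0952). Pmaip1, which encodes the death protein Noxa, rose by 1.86 ± 0.32 and Zmat3 by 0.69 ± 0.13 in libraries labelled Trib1-KO (adjusted p 9.5e-05 and 0.0002).

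Of 12 growth factor and receptor genes 11 were tested, and 4 rose and 1 fell in the libraries labelled Trib1-KO. Hgf, the hepatocyte growth factor gene, rose by 0.50 ± 0.11 (adjusted p 0.00088), to 405 ± 4.75 normalized counts, against 288 ± 40.2 in WT libraries (SD, n = 6 each). Areg, for the epidermal growth factor receptor ligand amphiregulin, was at 1.93 to 8.75 normalized counts, against 0 to 0.982 in WT libraries, and rose by 2.09 ± 0.41 (adjusted p 0.00041), a value between 0.80 and 2.82 over the alternatives. Tgfa, for a ligand of the same receptor, fell to 377 ± 30.2 normalized counts in libraries labelled Trib1-KO (-0.50 ± 0.09, adjusted p 0.00026, and 0.0605 under the Mup-free scaling) and rose to 698 ± 60.4 in those labelled DKO (0.39 ± 0.09, adjusted p 0.0116, and 0.0547 with only the groups compared), against 537 ± 74.7 in WT libraries. Egfr, the receptor of both ligands, and Met, the receptor of Hgf, did not pass against WT in any of the 3 groups.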

How the data were processed

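RNA-seq of whole liver (stranded mRNA libraries, per the labels' protocols) gave 1 table for 24 mice in 4 groups of 6. Per the submitters' processing notes, the authors used Salmon, DESeq2 and the GRCm38.p6 build, with versions not given in the sources used here. The values deposited by the authors are a signal, estimated counts divided by a size factor per library, and not raw counts: 65.0 to 70.2% of low values lay within 0.02 of whole multiples of a step, so whole reads were not recovered and no count test was run. Here log2(value + 1) was fitted with limma 3.58.1 (limma-trend, R 4.3.3) with 4 group means over the 19810 genes whose mean was 1 or more, two-sided, with Benjamini-Hochberg adjustment and a threshold of 0.05. Of the identifiers, 54050 (99.3%) were in GENCODE M21. The labels describe 2 cohorts, and the columns do not carry the cohort, so no value within a cohort is given. The members and lists were chosen with earlier results of these data known. All members are named, with ranges and full statistics for up to 4 of each class, and up to 3 genes of each other list are named, in both cases those with the smallest adjusted p in any comparison with WT. A gene that this rule names among the replication genes is not reported here. Alternatives changed the pseudocount, filter, scaling, weights, covariate and samples fitted, and left out each library in turn.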

Additional observations from a re-analysis of the deposited data

Results flagged for a closer look

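In 21 of 164 sets of 6 libraries (a member in a group), the highest library stood apart from the other 5 by Dixon's criterion, and the lowest did so in 0. Chance meets the criterion in about 1 in 20 sets of normally distributed values, a rate that need not hold for these normalized counts, which were not log-transformed for it. Cebpa-KO library E3 stood apart for 4 mitotic genes, with 30.65 normalized counts of Ccnb1, 73.83 of Cdk1, 81.08 of Cdc20 and 69.65 of Kif20a. Library H3 labelled DKO did so for Ccnb2 (28.47), Bub1 (34.45), Kif20a (53.96) and Cdkn2c (75.54). Library H2 labelled DKO had 697.8 normalized counts of Pcna and 429.8 of Cdkn1a, and G1, also labelled DKO, had 383.1 of Cdk2. Among libraries labelled Trib1-KO, D2 had 47.03 of Ccne2 and 218.0 of Cenpf, D3 had 67.93 of E2f2, D1 had 116.3 of Bub1b and C1 had 130.6 of Cenpe. Cebpa-KO library E1 had 52.26 of E2f2 and 23.57 of Cenpe, and F3 had 208.7 of Mcm4. WT library A3 had 386.0 of E2f8 and 102.6 of Cenpf.

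The interaction, the difference between libraries labelled DKO and Cebpa-KO libraries minus that between libraries labelled Trib1-KO and WT libraries, passed in limma for 15 members, and for 12.6% of all genes. On the log2 scale it was 0.67 for E2f1 and -1.88 for Ccnd1. For S phase genes it was -1.72 for Mcm5, -1.29 for Mcm6 and -1.06 for Rrm2. For genes of G2 and mitosis it was -2.79 for Aurkb, -2.32 for Ccnb2, -2.17 for Mki67, -2.15 for Top2a, -2.13 for Foxm1, -1.79 for Kif20a, -1.77 for Ccna2, -1.74 for Cdk1, -1.43 for Aurka and -1.14 for Kif11. As given above, the calls for E2f1, Rrm2, Cdk1 and Top2a were lost under some settings or without some libraries. Aurkb was low, with 0.687 to 14.3 normalized counts in libraries labelled DKO.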

How the results depend on the processing

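Over 11 other settings of the fit the members called were 20 to 24 in libraries labelled Trib1-KO against WT, 19 to 26 in libraries labelled DKO against those labelled Trib1-KO, 13 to 20 for the interaction and 0 throughout in libraries labelled DKO against Cebpa-KO libraries. The interaction could not be fitted on only the groups compared. In the main fit the shares over all genes for these 4 were, in that order, 22.7%, 30.3%, 12.6% and 0.202%. They were 9.82% in Cebpa-KO libraries and 6.09% in those labelled DKO, each against WT. Calls over all genes also moved with the setting. In libraries labelled Trib1-KO against WT they were 5167 higher and 988 lower under the Mup-free scaling, against 2330 and 2168. In Cebpa-KO libraries against WT, 5 members became 3 with no filter and 3 with only the groups compared in the fit. In libraries labelled DKO against WT, 5 became 2 with no filter and 3 with only the groups compared. Leaving out each library in turn, chosen after seeing the data, gave 18 to 21 in libraries labelled Trib1-KO, 3 to 6 in Cebpa-KO libraries and 2 to 5 in those labelled DKO, each against WT, 19 to 24 in libraries labelled DKO against those labelled Trib1-KO, 0 in libraries labelled DKO against Cebpa-KO libraries and 12 to 17 for the interaction. The difference of Cdkn1b between libraries labelled DKO and those labelled Trib1-KO changed sign, to -0.01 (adjusted p 0.963), with equal totals without the Mup genes. The cause was not tested. No paired analysis was possible because the labels' sample numbers are not shared between groups. The number of libraries, 6 per group, limits the precision, and raw depth is known only as an estimate.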

Other observations

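Spc24, a kinetochore gene, and Bbc3, which encodes the death protein Puma, were chosen after their values were seen. Spc24 averaged 346 ± 49.7 normalized counts in libraries labelled Trib1-KO, 112 ± 30.7 in Cebpa-KO libraries and 87.7 ± 30.4 in those labelled DKO, against 191 ± 46.6 in WT libraries (SD, n = 6 each). It rose in libraries labelled Trib1-KO (0.87, adjusted p 0.0048, limma). It fell in Cebpa-KO libraries (-0.78, adjusted p 0.0235, limma) and in those labelled DKO (-1.17, adjusted p 0.0014, limma). Most mitotic genes did not pass in the last 2 groups, where 9.82% and 6.09% of all genes did. Bbc3 fell in Cebpa-KO libraries (-1.20, adjusted p 0.0015) and in those labelled DKO (-0.91, adjusted p 0.0234), with means of 52.4 and 70.5 normalized counts, against 121 in WT libraries.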
